A study of Mus musculus with 2 samples.

Results

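Osteoblast-lineage cells were a small population of the digit wound, 64 of the 9967 cells that passed the cell filter. They were chosen by measured counts: a barcode whose number of detected genes lay between 200 and 7500, limits not included, with under 15% mitochondrial UMIs (unique molecular identifiers, each standing for 1 captured transcript) was a member when it held a UMI of at least 3 of the 6 bone genes *Ibsp*, *Bglap*, *Bglap2*, *Sp7*, *Dmp1* and *Phex*, with at least 2 UMIs of *Ibsp* or 1 of *Sp7*. Cells with 10 or more UMIs of *Prg4*, the lubricin gene of joint surface cells, and cells with UMIs of more than 3 of 6 cartilage genes (*Acan*, *Col9a1*, *Col9a2*, *Col9a3*, *Matn1*, *Snorc*) were left out. The levels of these 13 genes in the members are therefore a description of the choice and not a result.

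The cells came from neonatal ICR mice whose hindlimb digits 2 and 4 were amputated through the middle phalanx (P2) at postnatal day 3. An agarose bead soaked in FGF8 (500 ng/µl) or, as control, in 0.1% BSA in PBS was implanted at postnatal day 7, and the tissue beyond the bone stump, with the epithelium removed, was taken 24 h later, at postnatal day 8. Each treatment was 1 droplet-based single-cell library from 20 pooled digits of 5 mice, with males and females together, so no difference between the libraries could be set against a spread between replicates, and none carries a p-value. Not every FGF8-treated digit regenerates, and the FGF8 pool may hold digits that would not have done so. Treatment, pool of animals and library cannot be told apart in these data. The pools also differed in sex, with females making up 24.6% of the sex-called FGF8 cells and 79.3% of the sex-called BSA cells.

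Osteoblasts build bone in a known order. RUNX2 commits mesenchymal cells to the lineage, SP7 (osterix) acts after it, and the cells then secrete type I collagen and tissue-nonspecific alkaline phosphatase, which frees phosphate for mineral. Mature osteoblasts add the mineral-binding proteins osteopontin (*Spp1*), bone sialoprotein (*Ibsp*) and osteocalcin (*Bglap*, *Bglap2*), and the cells that become buried in matrix as osteocytes turn on *Dmp1* and *Phex* and later *Mepe*, *Sost* and *Fgf23*.

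Promoter sequence was examined for the 20 genes with the highest level in the members over other connective tissue cells in the lower of both libraries. A window of 300 bases around an annotated start (RefSeq, GRCm38.p6) was read for 13 of the 20. The core motif of RUNX proteins, ACCACA on either strand, occurred in the windows of 5 of these 13 genes, in 6 of their 21 windows (28.6%). It occurred in 16.8% of all 32851 windows of that length. The 4 windows below are shown because they belong to osteocalcin, a collagenase, osteopontin and bone sialoprotein, genes that recur in the results. ACCACA is in capitals.
Bglap: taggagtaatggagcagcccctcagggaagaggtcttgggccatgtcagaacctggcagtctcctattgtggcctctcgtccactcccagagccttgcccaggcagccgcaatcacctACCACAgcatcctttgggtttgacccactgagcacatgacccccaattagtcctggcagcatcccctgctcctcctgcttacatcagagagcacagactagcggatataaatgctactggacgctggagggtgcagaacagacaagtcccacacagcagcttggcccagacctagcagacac
Mmp13: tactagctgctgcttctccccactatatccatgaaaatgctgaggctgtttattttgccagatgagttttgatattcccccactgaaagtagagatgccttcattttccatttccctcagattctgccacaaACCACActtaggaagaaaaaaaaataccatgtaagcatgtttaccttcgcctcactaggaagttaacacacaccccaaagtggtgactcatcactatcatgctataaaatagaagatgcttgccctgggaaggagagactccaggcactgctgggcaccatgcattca
Spp1: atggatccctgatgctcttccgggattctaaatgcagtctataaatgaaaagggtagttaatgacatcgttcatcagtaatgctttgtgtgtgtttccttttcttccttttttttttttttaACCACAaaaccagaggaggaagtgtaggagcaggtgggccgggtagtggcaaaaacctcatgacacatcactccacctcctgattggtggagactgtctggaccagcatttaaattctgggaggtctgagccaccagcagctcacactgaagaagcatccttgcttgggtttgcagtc
Ibsp: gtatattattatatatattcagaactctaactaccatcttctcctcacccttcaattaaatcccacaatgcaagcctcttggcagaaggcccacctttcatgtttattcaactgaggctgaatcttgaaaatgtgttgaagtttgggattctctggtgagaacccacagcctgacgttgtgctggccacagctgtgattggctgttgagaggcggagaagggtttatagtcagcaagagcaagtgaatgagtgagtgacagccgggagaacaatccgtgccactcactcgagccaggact
These are chr3:88384417-88384716 on the minus strand for *Bglap*, chr9:7272264-7272563 on the plus strand for *Mmp13*, chr5:104434861-104435160 on the plus strand for *Spp1* (the first of its 2 windows; the other held no match) and chr5:104299037-104299336 on the plus strand for *Ibsp*. The motif began at position -132 from the start of *Bglap*, -118 from that of *Mmp13* and -128 from that of *Spp1*, and it was not found in the *Ibsp* window. A match of these letters is a description of the sequence and not evidence that RUNX2 bound it.

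The BSA library held 17 members, 0.523% of its 3252 cells (exact 95% Clopper-Pearson interval 0.305–0.836%), and the FGF8 library 47 of 6715 cells, 0.700% (0.515–0.930%). The intervals overlap and, as all intervals here, cover counting error only. The members were deep: their median was 30402 UMIs in the BSA library (13336 to 60623) and 22080 in the FGF8 library (568 to 56823), against 15377 and 12251 over all kept cells. Since a deeper cell more easily shows 3 bone genes, each barcode was also thinned to 5000 UMIs, after which 6 of 2454 BSA cells (0.244%) and 23 of 4971 FGF8 cells (0.463%) met the rule. In the BSA library 13 members were female-called, 3 male-called and 1 uncalled, and in the FGF8 library these numbers were 12, 26 and 9. No barcode sequence of a member occurred in both libraries; 6 barcodes of the whole series did.

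Many members stood at the edge of the rule. Of the BSA members, 9 held exactly 3 of the 6 bone genes and 1 held all 6, and of the FGF8 members 18 held exactly 3 and 4 held all 6. Just outside, 16 BSA and 25 FGF8 cells met every other condition with 2 bone genes, 6 and 12 cells were left out by the cartilage limit alone, and 2 and 4 by the *Prg4* limit alone. The latter held 11 to 12 *Prg4* UMIs in the BSA library and 33 to 103 in the FGF8 library, whereas the highest members held 6 and 8.

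The label was checked on bone genes that the rule did not use. *Runx2* (ENSMUSG00000039153, GRCm39 chromosome 17, 44806874–45125684) had a UMI in 17 of 17 BSA and 44 of 47 FGF8 members, and its level was 3.54 log2 units above other connective tissue cells (1413 BSA and 2277 FGF8 cells with at least 10 UMIs of *Col1a1* and 1 of *Pdgfra*, under 10 of *Prg4*, under 3 of the macrophage C1q genes and at most 3 of the 6 cartilage genes) in the BSA library and 3.44 above in the FGF8 library. *Ifitm5*, a membrane protein gene almost restricted to osteoblasts, stood 7.67 and 7.50 log2 units above those cells, and *Alpl* (chromosome 4, 137469039–137524102), the alkaline phosphatase, 4.21 and 4.33. The homeobox gene *Dlx5* stood 4.02 and 4.42 above them. These genes went with the label in both libraries, but not all genes of their lists did. Of 12 osteoblast regulators 6 stood more than 1 log2 unit above other connective tissue cells in each library. Of the bone matrix genes 5 of 11 (BSA) and 7 of 12 (FGF8) did, and of the mineralization genes 9 of 11 and 10 of 11. All 3 lists hold genes of the rule. *Ifitm5* had 73 of its 129 BSA UMIs in 1 cell. The genes of the late osteocyte were nearly absent: *Sost* and *Fgf23* had no UMI in any of the 64 members, which allows a share of up to 4.69% of cells with a UMI and a level of up to 1.87 CPM, and *Mepe* had 0 UMIs in the BSA and 3 in the FGF8 members. *Col10a1*, the collagen of hypertrophic cartilage, had 1 UMI in each library.

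Of the 6576 genes found in at least 25% of the members of each library, 218 (3.32%) stood more than 1 log2 unit above other connective tissue cells in both libraries and 165 (2.51%) more than 1 below. These ratios describe the cells that the rule chose and test nothing. The 20 highest included the rule genes *Bglap*, *Bglap2*, *Ibsp* and *Sp7*. Among the others, *Smpd3*, a sphingomyelinase needed for mineralization, stood 7.15 and 8.13 log2 units above, in the BSA and FGF8 library, *Mmp13*, the collagenase of bone and cartilage remodelling, 6.71 and 6.57, and *Spp1* 8.23 and 6.33. *Panx3*, a channel gene of osteoblasts and chondrocytes, stood 6.0 and 7.48 above. *Sfrp4*, a secreted WNT inhibitor, stood 4.36 and 4.55 above, *Sox6* 4.20 and 4.21, *Col11a2* 5.61 and 4.26, *Itga10* 4.46 and 4.95 and *Slc8a3*, a sodium-calcium exchanger gene, 4.13 and 5.08. *Sox6*, *Col11a2* and *Itga10* are better known from cartilage. *Dapk2*, *Tmie*, *Megf10* and *Pdzrn4* stood at 4.87 to 6.48.

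**Figure D1:**
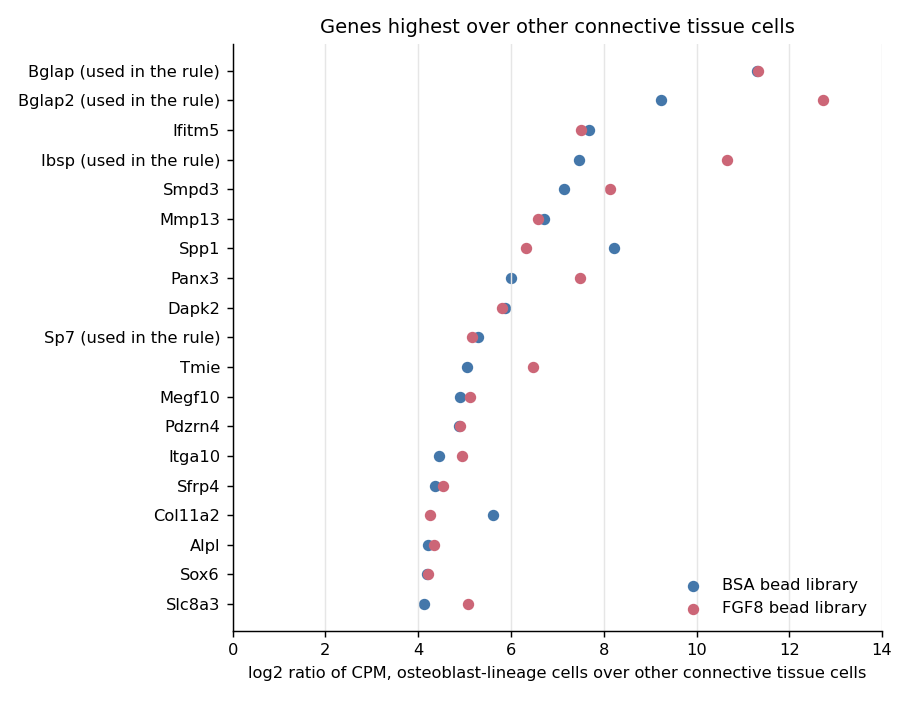
Log2 ratio of CPM (UMIs of a gene per 1000000 UMIs) in osteoblast-lineage cells over other connective tissue cells, on the x axis, for 19 of the 20 highest genes, with 1 point per library (blue BSA, red FGF8). Both points of each gene lie above 4; *Bglap2*, *Ibsp*, *Panx3* and *Tmie* lie over 1 unit further right in the FGF8 library, and *Spp1* and *Col11a2* in the BSA library.

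Against chondrocytes (78 BSA and 160 FGF8 cells with over 3 of the 6 cartilage genes) the gap was smaller for several of these genes. These chondrocytes include the 6 BSA and 12 FGF8 cells that only the cartilage limit kept out of the members. The 6 bone genes summed to 949 and 431 CPM in BSA and FGF8 chondrocytes, against 20.1 and 12.1 CPM in other connective tissue cells. The part of those bone-gene cells in the chondrocyte levels was not tested. *Runx2* in the members was 1.26 log2 units above chondrocytes in the BSA library and 1.46 in the FGF8 library, and *Alpl* 0.54 and 1.19. *Panx3* stood at -2.11 against chondrocytes in the BSA library and at 0.07 in the FGF8 library, and *Smpd3* at -0.40 and 0.98. *Mmp13* was 3.50 and 3.88 above them. The libraries differed in how far *Spp1* set the members apart: it was 3.34 units above chondrocytes in the BSA library and 0.87 in the FGF8 library, where chondrocytes themselves held 32917 CPM against 2694 CPM in the BSA library.

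Osteopontin varied most visibly from cell to cell. *Spp1* (chromosome 5, 104582165–104589235) ranged from 0 to 141862 CPM over the BSA members with a median of 1303 CPM, and from 45.3 to 203958 CPM over the FGF8 members with a median of 59836 CPM. It made up at least 50000 CPM in 4 of 17 BSA members (23.5%) and 25 of 47 FGF8 members (53.2%), and 3 BSA members held none. High cells were present in both libraries and the ranges overlapped. Summed over the members, *Spp1* stood at 27274 CPM in the BSA and 60006 CPM in the FGF8 library, a log2 ratio of 1.14 (exact conditional 95% interval 1.11–1.16). Within female-called members it was 1.78 and within male-called members, of which the BSA library had only 3, it was 1.18. The same direction was seen in other connective tissue cells (3.03), *Prg4*-high cells (5.73), chondrocytes (3.61) and macrophages (1.19). Endothelial cells, which should lack *Spp1*, held a UMI of it in 7.58% of BSA and 65.2% of FGF8 cells, at 8.55 and 77.5 CPM and median depths of 8854 and 10192 UMIs, so a UMI of *Spp1* in an FGF8 cell can be background, while the summed level of the members was far above that of endothelial cells.

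**Figure D2:**
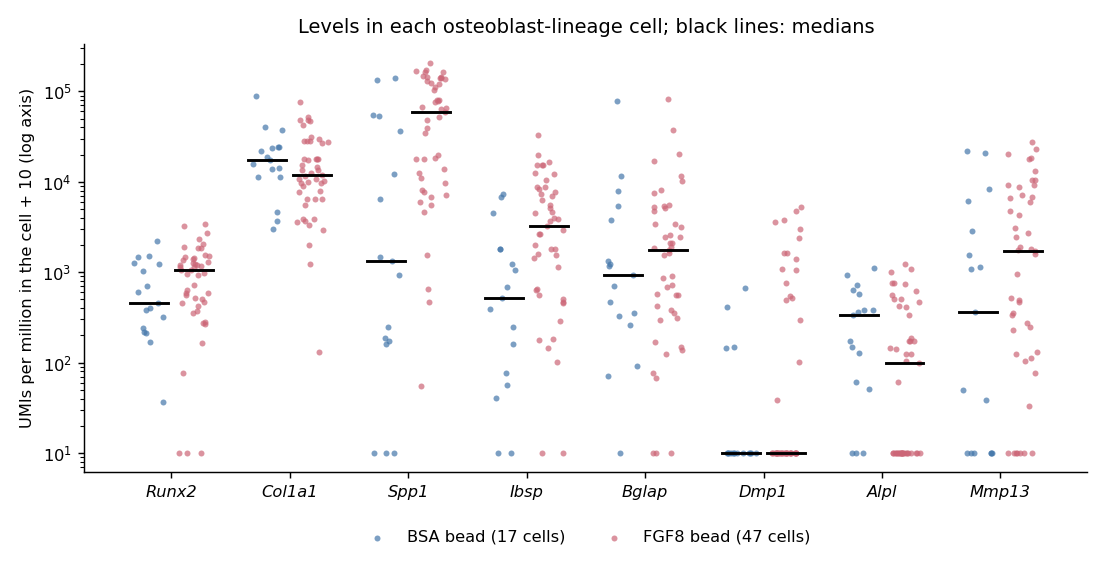
Levels of 8 genes in each osteoblast-lineage cell (1 point per cell, 17 BSA in blue and 47 FGF8 in red; y axis, CPM of the cell plus 10, on a log axis; black lines, medians). The *Spp1* median lies at 1303 CPM in the BSA and 59836 CPM in the FGF8 cells, points at the bottom are cells without a UMI, and the cells of both libraries overlap for all 8 genes.

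The other matrix genes did not move together. *Col1a1* (chromosome 11, 94827050–94843868), the main chain of bone collagen, had a UMI in all 64 members, from 2985 to 89166 CPM with a median of 17378 in the BSA library and from 121 to 76421 CPM with a median of 11791 in the FGF8 library; its log2 ratio was -0.65 (-0.68 to -0.61). *Col1a2* had a log2 ratio of -0.46 (-0.50 to -0.42), *Sparc* (osteonectin) -0.13 (-0.17 to -0.08) and *Omd* (osteomodulin) 0.42 (0.09 to 0.76). *Ibsp* (chromosome 5, 104447037–104459338), a rule gene, had medians of 507 and 3222 CPM and a log2 ratio of 1.48 (1.38–1.58), whereas it was lower in the other connective tissue cells of the FGF8 library (-1.72). Of the 12 bone matrix genes tested, meaning those with at least 10 UMIs over both libraries, 5 were higher and 7 lower in the FGF8 members, and 3 were above 1 and 0 below -1, with a median of -0.17. The list holds the rule genes *Ibsp*, *Bglap* and *Bglap2*, and of the 3 above 1 only *Spp1* was not used by the rule. Over all 9750 genes tested in the members 7.81% were above 1 and 7.35% below -1, with a median of -0.03.

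Osteocalcin rested on single cells. *Bglap* (chromosome 3, 88290808–88291771) ranged from 0 to 78299 CPM over the BSA members and from 0 to 82919 CPM over the FGF8 members, with medians of 921 and 1753 CPM. Of its 3614 BSA UMIs, 2630 (72.8%) were in 1 cell, and of its 6118 FGF8 UMIs the richest cell held 26.5%. Its log2 ratio was -0.27 (-0.33 to -0.21) over all members and 1.52 without that BSA cell. It was -2.02 in female-called members, to which that cell belongs, and 5.13 in male-called members. The same cell held the most BSA UMIs of *Col1a1*, *Col1a2*, *Spp1*, *Bglap2*, *Dmp1*, *Phex* and *Enpp1*; without it the log2 ratio was 1.62 for *Spp1*, -0.33 for *Col1a1* and 3.56 for *Dmp1*. *Bglap2* (chromosome 3, 88285043–88286060), the neighbouring copy, had 31 BSA and 316 FGF8 UMIs, a log2 ratio of 2.32 (1.79–2.91). In the last 300 bases of their longest coding transcripts (GENCODE vM39) the copies differed at 1 base (99.7% identical), so the split of reads between them is uncertain in a 3′ library; *Bglap3* was 92.8% identical to *Bglap* there and had 3 and 8 UMIs.

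Among the transcription factors of the lineage, *Runx2* had a median of 444 CPM over the BSA members (26.7 to 2212) and 1038 CPM over the FGF8 members (0 to 3386), with a log2 ratio of 0.47 (0.30–0.63), and it was 0.57 in other connective tissue cells. *Sp7*, a rule gene, had 0.0037 (-0.51 to 0.54) and *Dlx5* -0.0036 (-0.65 to 0.67). Of the 12 regulators tested, 6 were higher and 6 lower in the FGF8 library, and only *Twist2* (4 BSA and 22 FGF8 UMIs, 1.43, -0.13 to 3.43) was past 1 in either direction.

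Mineralization genes leaned to the FGF8 library: 8 of 11 were higher, 4 were above 1 and 0 below -1, with a median of 0.43 in the members and 0.01 in other connective tissue cells. This lean was not particular to the members. The median was 0.45 in *Prg4*-high cells (7 of 9 higher) and 0.94 in chondrocytes (6 of 11 higher). The list holds the rule genes *Dmp1* and *Phex*, and its median was 2.53 in female-called and -0.62 in male-called members. *Ank*, the pyrophosphate exporter (*Ankh* in the list, entered under the symbol used in the files), had medians of 79.0 and 255 CPM and a log2 ratio of 1.88. *Fam20c*, the kinase that phosphorylates secreted matrix proteins, had 13 BSA and 86 FGF8 UMIs (1.70, 0.85–2.66), and *Slc20a1*, a phosphate transporter, 8 and 65 UMIs (2.00, 0.93–3.27), of which 40.0% of the FGF8 UMIs were in 1 cell. *Ank* and *Slc20a1* did not keep their direction in the male-called members (-0.18 and -0.68), which were 3 cells in the BSA library. *Enpp1*, which makes pyrophosphate, had 0.45 (0.21–0.69), *Alpl* -0.27 (-0.55 to 0.01), *Ifitm5* 0.05 (-0.25 to 0.37) and *Smpd3* -0.72 (-1.15 to -0.29). *Ifitm5* was spread over more FGF8 cells at the same summed level: 33 of 47 FGF8 members held a UMI (70.2%) and 5 of 17 BSA members (29.4%), and after thinning to 5000 UMIs, which left out 6 FGF8 members, these shares were 43.9% and 23.5%.

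*Dmp1* (chromosome 5, 104345340–104361974), the acidic matrix protein of late osteoblasts and osteocytes, divided the members. It had a UMI in 4 of 17 BSA members (23.5%; 22, 14, 5 and 3 UMIs) and 18 of 47 FGF8 members (38.3%), where the richest cell held 204 UMIs; after thinning the shares were 23.5% and 24.4%. The 6 FGF8 members under 5000 UMIs (568 to 3908), which thinning leaves out, all held *Dmp1*. Summed over all members, *Dmp1* stood at 83.1 CPM in the BSA and 524 CPM in the FGF8 library, a log2 ratio of 2.66 (2.21–3.13). In the FGF8 library, *Spp1* stood at a median of 135624 CPM in the cells with *Dmp1* and 13926 CPM in those without, and *Mmp13* at 6530 and 455 CPM. *Ank* had medians of 968 and 105 CPM in these cells. *Alpl* went the other way: 4 of the 18 FGF8 cells with *Dmp1* held a UMI of it, and 21 of the 29 without. The 18 cells were shallower, with a median of 18615 against 24546 UMIs, and the 6 of them under 5000 UMIs held no *Alpl*. Among the 12 deeper cells with *Dmp1*, 4 held *Alpl*, and the medians were 143102 CPM for *Spp1* and 9825 CPM for *Mmp13*, while all 29 cells without *Dmp1* had at least 10926 UMIs. Summed over the cells, *Postn* (periostin), a matrix gene of periosteum and young osteoblasts, had 103 CPM with and 536 CPM without *Dmp1*, *Acan* 87.7 and 295 CPM, and *Runx2* 1009 and 1094 CPM. *Sp7* was found in 8 of the 18 and 28 of the 29, a difference that the rule shapes, since a cell with *Dmp1* needed only 2 other bone genes. In the BSA library the 4 cells with *Dmp1* had a median *Spp1* level of 73625 CPM and the other 13 of 912 CPM. *Ank* had medians of 332 and 75 CPM in them. *Alpl* had a UMI in 3 of the 4 and 11 of the 13. *Mmp13* had medians of 553 and 356 CPM, the order of the FGF8 library, but sums of 936 and 5426 CPM, the opposite order. *Postn* had medians of 2093 and 889 CPM and sums of 2573 and 979 CPM, both opposite to the FGF8 library, and 1 of the 4 cells was the tendon-rich cell described below, with 192 *Postn* UMIs.

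**Figure D3:**
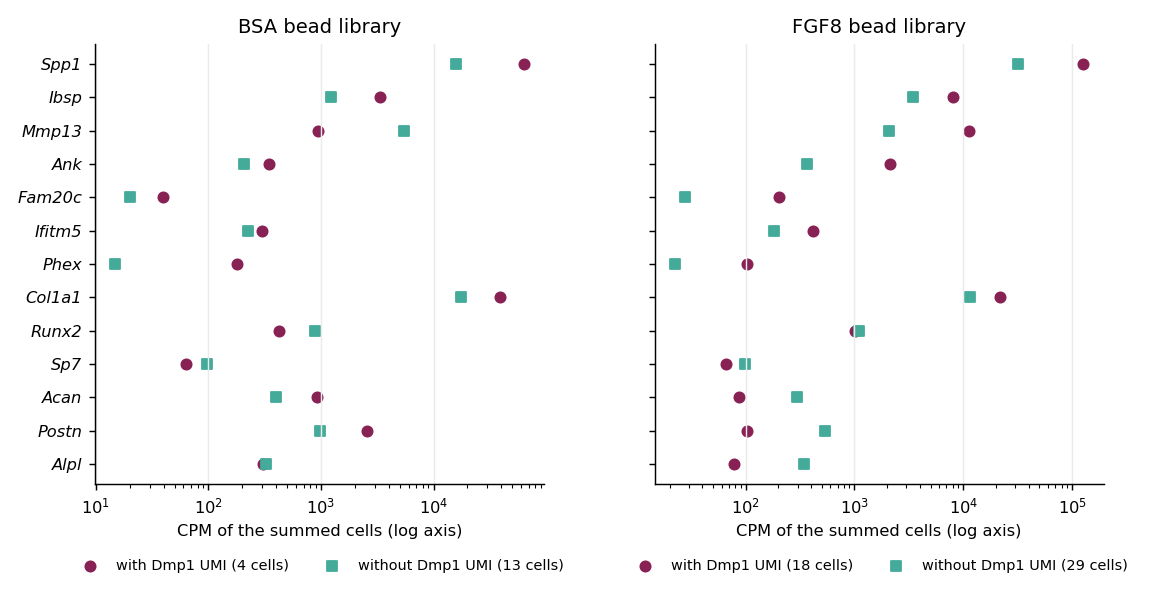
CPM of 13 genes (x axis, log scale) summed over the osteoblast-lineage cells with (circles) and without (squares) a *Dmp1* UMI, for the BSA library (4 and 13 cells) and the FGF8 library (18 and 29 cells). *Spp1*, *Ibsp*, *Ank*, *Fam20c*, *Ifitm5*, *Phex* and *Col1a1* lie further right with *Dmp1* in both libraries, and *Mmp13*, *Postn* and *Acan* change their order between the libraries. The rule used *Ibsp*, *Phex* and *Sp7* beside *Dmp1*, so their places in this split describe the choice and are not a result.

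Tendon genes had the lowest median of the 20 gene programs, and 1 cell carried much of it. All 7 (*Scx*, *Tnmd*, *Mkx*, *Kera*, *Thbs4*, *Fmod*, *Comp*) were more than 1 log2 unit lower in the FGF8 members, with a median of -2.22, against -0.74 and 0 genes below -1 in other connective tissue cells. *Prg4*-high cells had a tendon median of -1.70, with 5 of 7 genes below -1 and 1 above 1. In chondrocytes it was -0.66, with all 7 lower and 3 below -1. Of 133 BSA UMIs of *Tnmd* (tenomodulin, a membrane protein of mature tendon cells) 129 were in 1 member, as were all 48 of *Kera* and 56 of 57 of *Thbs4*. That cell of 37479 UMIs held 19 *Ibsp*, 5 *Dmp1* and 1 *Phex* UMIs, 1 *Runx2* UMI and none of *Alpl*, *Bglap* or *Sp7*, and 192 of *Postn*. Without it the list median was -0.89. In male-called members, only 3 of them BSA, the list median was 0.015 over part of the 7 genes. A second choice of genes gave -0.17 there, so its sign is uncertain. Without the tendon-rich cell, *Tnmd* stood at 0.04 and *Thbs4* at 2.57. The remaining tendon genes were spread more widely. *Fmod* (fibromodulin, a collagen-binding proteoglycan) had a UMI in 16 of 17 BSA and 28 of 47 FGF8 members, with medians of 431 and 45.9 CPM and a log2 ratio of -1.64 (-1.95 to -1.34), and *Scx* (scleraxis, the tendon transcription factor) in 12 and 20 members, with -1.71 (-2.31 to -1.13). *Comp*, a cartilage and tendon matrix protein, had -2.22 (-2.70 to -1.76).

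**Figure D4:**
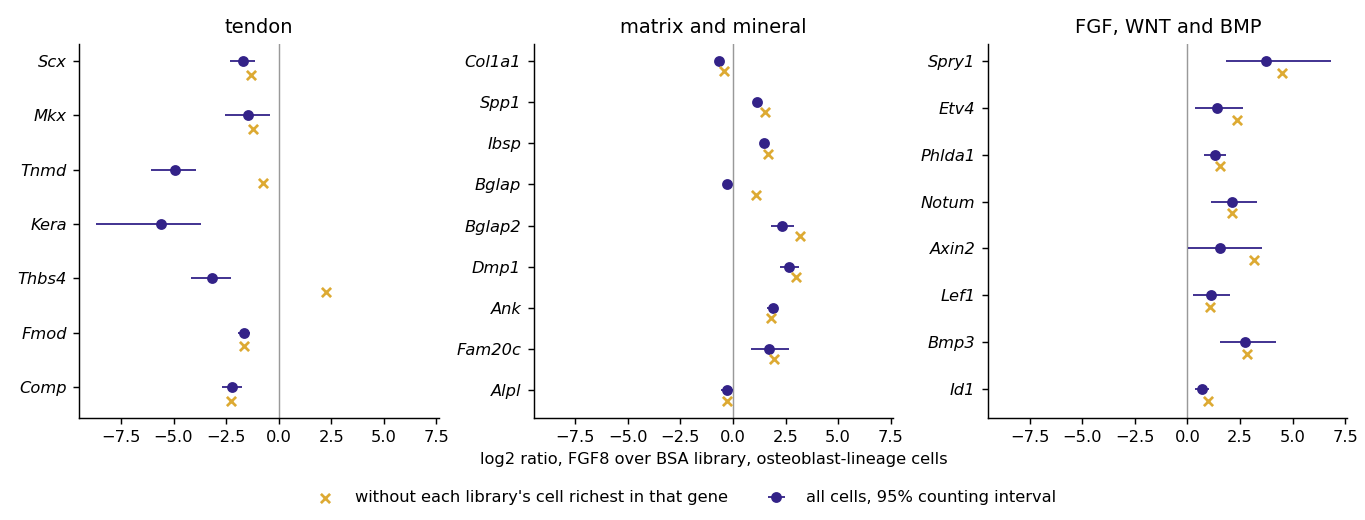
Log2 ratio of FGF8 over BSA in osteoblast-lineage cells (x axis) for tendon, matrix and mineral, and signalling genes; circles with bars are all members with the exact 95% counting interval, and crosses the value without the cell richest in that gene in each library (*Kera* has no cross, since too few UMIs remain). The crosses of *Tnmd*, *Thbs4* and *Bglap* lie far from their circles, and those of *Fmod*, *Comp*, *Bmp3* and *Notum* close to theirs.

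Of the 11 skeletal progenitor genes 5 were higher and 6 lower in the FGF8 members, with a median of -0.15. *Postn* had a UMI in 16 of 17 BSA and 44 of 47 FGF8 members, with medians of 983 and 256 CPM, and a log2 ratio of -1.74 (-1.91 to -1.57) that was -1.40 without the cell above. *Ctsk* had -0.82 (-1.08 to -0.56) and *Pdgfra* -0.75 (-1.30 to -0.20), while *Prrx1*, a limb mesenchyme transcription factor, had 0.07 (-0.18 to 0.33). Among the 24 collagen processing genes 21 were lower in the FGF8 members, 3 below -1 and 0 above 1, with a median of -0.36, against -0.11 in other connective tissue cells. The collagen processing median was -0.54 in *Prg4*-high cells (21 of 25 lower) and -0.49 in chondrocytes (22 of 25 lower). *Serpinh1*, the collagen chaperone HSP47, had medians of 1575 and 829 CPM (log2 ratio -0.58, -0.72 to -0.45), *P4hb* -0.50 (-0.73 to -0.27), *Fkbp10* -0.68 (-0.97 to -0.39) and *Loxl2*, a collagen crosslinker, -1.11 (-1.55 to -0.67). *Creb3l1*, a regulator of collagen secretion, had 0.01 (-0.40 to 0.44). The fibroblast marker list was also lower: 5 of its 6 genes tested were lower, with a median of -0.70 and summed levels of 10311 CPM in the BSA and 6640 CPM in the FGF8 members (19466 and 13596 CPM in other connective tissue cells). Its genes *Dpt*, *Col3a1*, *Dcn* and *Lum* had -1.16, -0.81, -0.64 and -0.31, and the 1 gene that was higher had 2.48. The part of fibroblast-like RNA in the tendon, *Postn* and collagen values was not tested.

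FGF response genes were mixed. Of 14 tested, 9 were higher in the FGF8 members and 3 were above 1, with a median of 0.22, against 0.41 in other connective tissue cells. *Spry1*, a feedback inhibitor of receptor tyrosine kinases, had 2 UMIs in 2 BSA members and 55 in 24 of the 47 FGF8 members, a log2 ratio of 3.76 (1.83–6.84), whereas it was -0.22 in other connective tissue cells. After thinning its shares were 5.88% and 14.6%, at a level near that of 1 UMI, from which no change can be read. *Etv4*, an FGF target transcription factor, had 9 and 49 UMIs (1.42, 0.38–2.63), close to its 1.55 in other connective tissue cells, and *Phlda1* 40 and 200 UMIs (1.30, 0.80–1.82) against 0.93 there. The classical feedback genes *Dusp6* (14 and 30 UMIs, 0.07, -0.89 to 1.10) and *Spry4* (10 and 29 UMIs, 0.51, -0.57 to 1.71) had wide intervals around 0. The receptors were present in both libraries: *Fgfr1* in 17 BSA and 42 FGF8 members (log2 ratio -0.02, -0.25 to 0.22), *Fgfr2* in 16 and 42 (-0.19, -0.45 to 0.07) and *Fgfr3* in 7 and 14 (-0.15, -1.23 to 1.00). *Fgfr3* stood 3.29 and 2.82 log2 units above other connective tissue cells, and *Fgfr4* had no UMI in any member (floor as for *Sost*).

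WNT response genes had the highest median of the 20 gene programs, 0.68, with 6 of 8 higher, 3 above 1 and 0 below -1, against -0.20 in other connective tissue cells. Without members holding 2 or more markers of another cell type, erythroid genes included, which left 4 BSA and 11 FGF8 cells, this median was -0.83. In chondrocytes the WNT response median was 0.26, with 9 of 11 genes higher, 3 above 1 and 0 below -1. In *Prg4*-high cells it was -0.50, with 4 of 11 higher. *Notum*, a secreted WNT deacylase, had 9 BSA and 79 FGF8 UMIs in 5 and 16 members (2.11, 1.11–3.29), *Axin2* 4 and 24 UMIs (1.56, 0.02–3.55), *Lef1* 15 and 66 (1.11, 0.29–2.03) and *Tcf7* 17 and 53 (0.61, -0.20 to 1.495). Among 11 BMP ligands and response genes 9 were higher, with a median of 0.33. *Bmp3*, a BMP antagonist made by osteoblasts, had 6 UMIs in 4 BSA members and 81 in 21 FGF8 members (2.73, 1.54–4.22), against -0.67 in other connective tissue cells. *Bmp4* had 0.79 (0.08–1.56), *Bmp2* 0.49 (-0.07 to 1.08), the target genes *Id1* 0.70 (0.37–1.05) and *Id3* 0.33 (0.13–0.54), and the antagonist *Nog* (16 and 13 UMIs) -1.33 (-2.50 to -0.18). With no cartilage limit *Bmp2* stood at -1.63, and in male-called members at -0.80. Under the other settings *Bmp2* kept its sign.

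Signals to osteoclasts, the bone-resorbing cells, were mixed: 5 of 10 genes were higher, with a median of -0.08 in the members and 0.65 in other connective tissue cells. *Tnfsf11* (RANKL, the osteoclast differentiation factor) had 77 and 90 UMIs, a log2 ratio of -0.80 (-1.26 to -0.34), whereas it was 1.51 in other connective tissue cells, and *Csf1* had -0.71 (-1.14 to -0.29), with 50.6% of its BSA UMIs in 1 cell. *Sema3a*, which restrains osteoclasts, had medians of 26.9 and 137 CPM (1.19, 0.73–1.67), and the decoy receptor *Tnfrsf11b* 4 and 18 UMIs (1.14, -0.46 to 3.17). *Pth1r*, the parathyroid hormone receptor, had a UMI in 17 and 40 members and a log2 ratio of 0.05 (-0.22 to 0.32). Of the protease and inhibitor genes, 8 of 13 were higher, with a median of 0.19. *Mmp13* had medians of 356 and 1706 CPM but a summed log2 ratio of 0.14 (0.07–0.21), *Timp1* 1445 and 4224 CPM (0.62, 0.54–0.70) and *Mmp14* 547 and 305 CPM (-1.08, -1.29 to -0.87). *Mmp3* (stromelysin), with 9 and 37 UMIs (1.01, -0.06 to 2.25), stood at 3.65 in other connective tissue cells.

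Chemokines and the mitotic program had different medians in the members and in other connective tissue cells, a difference that was not tested. Of 9 chemokine and interleukin genes tested in the members 4 were above 1 and 2 below -1, with a median of -0.21; in other connective tissue cells 11 of 14 were above 1, with a median of 1.59. The chemokine median of the members changed sign with their choice: it was 0.72 without the BSA cell rich in tendon genes, 1.13 with at least 4 bone genes, 0.59 with equal weight per cell, 0.93 without each gene's richest cell and -0.33 after thinning. *Ccl2* had -0.38 (-1.18 to 0.44) in the members and 1.96 in other connective tissue cells, but 0.72 without that BSA cell and 1.86 under the stricter cell filter, and *Cxcl1* -0.86 (-1.44 to -0.28) and 1.40. *Cxcl14* had 1.16 (0.57–1.79) and 1.73. Of 22 mitosis genes 7 were higher in the FGF8 members and 4 were below -1, with a median of -0.45, whereas 21 of 22 were above 1 in other connective tissue cells, with a median of 1.29. Chondrocytes were close to the members, with 6 of 22 higher and a median of -0.40, and *Prg4*-high cells had a median of 1.11. *Top2a* had a UMI in 9 BSA and 21 FGF8 members and a log2 ratio of 0.38 (-0.05 to 0.82), *Mki67* in 7 and 17 members with 0.43 (-0.14 to 1.03), and *Cenpa* in 9 and 16 members with -1.12 (-1.54 to -0.69). The mitosis median was -0.80 in female-called and 1.33 in male-called members, where *Cenpa* had no UMI in the BSA library. It was 0.20 without members holding markers of other cell types, erythroid genes aside, and 0.029 without each gene's richest cell. One BSA cell held 57.1% of the BSA UMIs of *Top2a*. S phase genes had a median of -0.08 over 20 genes, with 9 higher and 11 lower. *Pcna*, at 1.36 (0.60–2.20), was 1 of 3 above 1, and 2 were below -1. All 20 were higher in other connective tissue cells (median 0.615) and in *Prg4*-high cells (0.775). In chondrocytes 7 were higher, with a median of -0.13. These differences between cell groups were not tested.

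**Figure D5:**
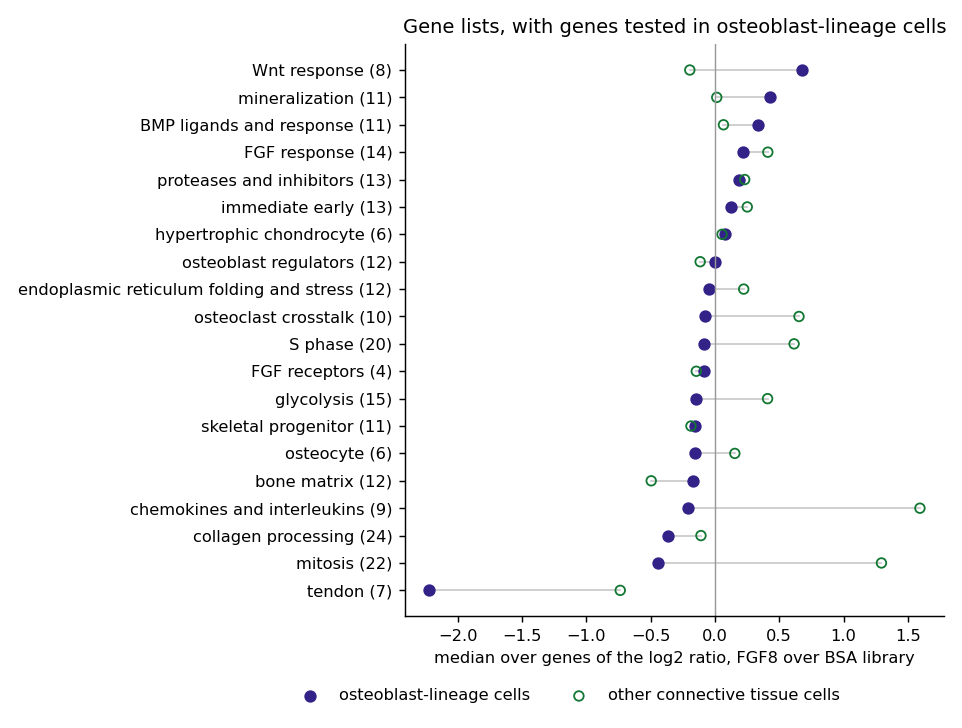
Median over genes of the log2 ratio FGF8 over BSA (x axis) for 20 gene lists, in osteoblast-lineage cells (filled) and other connective tissue cells (open), with the number of genes tested in the former in parentheses. The medians lie farthest apart for chemokines and interleukins (-0.21 and 1.59), mitosis (-0.45 and 1.29) and tendon (-2.22 and -0.74).

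The 15 glycolysis genes had a median of -0.15 (*Gapdh* -0.23, -0.37 to -0.08), 12 genes of endoplasmic reticulum folding and stress -0.05 (*Hspa5* -0.48, -0.65 to -0.31) and 13 immediate early genes, which also respond to dissociation, 0.13 (*Fos* 0.56, 0.36–0.76, and *Jun* 0.16, -0.0030 to 0.32). By sex, the immediate early median was -0.74 (female-called) and 1.90 (male-called), and the endoplasmic reticulum median -0.74 and 0.076. Hypertrophic cartilage genes had a median of 0.08 over 6 genes, and *Col2a1* and *Sox9* stood at 0.38 (-0.21 to 0.99) and -0.65 (-1.10 to -0.19). Of the 34 BSA UMIs of *Col2a1*, 27 were in the BSA cell richest in *Bglap*. Without that cell *Col2a1* stood at 2.56, and without each library's richest cell at 1.52. With no cartilage limit it stood at -1.39, and with at least 4 bone genes at -0.63. Under the other settings it kept its sign.

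Among the 2550 genes with at least 100 UMIs over the members 50 (1.96%) were above 1 and 67 (2.63%) below -1. With a UMI in at least 10% of the members of the higher library and the same sign in both sexes, the 10 highest were *H1f5* (4.12, 3.51–4.80), *Kcnip4* (3.90), *Dmp1*, *Hmox1* (2.33), *Bglap2*, *H1f4* (2.17), *Nav2* (1.98), *Hpgd* (1.76), *Fign* (1.74) and *Bin1* (1.51). *H1f5* and *H1f4* encode linker histones, whose transcripts are mostly made in S phase; *H1f5* was found in 14 of 47 FGF8 members. *Hpgd*, which breaks down prostaglandins, had a UMI in 9 BSA and 31 FGF8 members with medians of 20.6 and 256 CPM, and *Bin1* in 10 and 39 members. For *Hmox1* (heme oxygenase) 76.1% of the FGF8 UMIs were in 1 cell. The 10 lowest were *C1qtnf3* (-2.24), *Mfap2* (-2.04), *Anxa8* (-1.90), *Col11a2* (-1.88), *Ecrg4* (-1.86), *Pdgfrl* (-1.85), *Gas1* (-1.79), *Pmp22* (-1.78), *Postn* and *Fmod*. *Tnmd* was lower than all of these but had no male BSA UMI to give a direction within males. The BSA cell rich in tendon genes was also the BSA cell with the most UMIs of *C1qtnf3*, *Mfap2*, *Pdgfrl*, *Gas1* and *Pmp22*. Without it *C1qtnf3* stood at -1.25 and *Pdgfrl* at -1.36. *Col11a2* had 45 of its 85 BSA UMIs in the BSA cell richest in *Bglap* and stood at -0.89 without that cell. *Ecrg4*, a secreted peptide precursor, was more even, with medians of 786 and 42.2 CPM and a log2 ratio of -4.59 among females and -0.38 among males.

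Fibroblast markers (7 genes) were present in all members, with 5459 UMIs over the BSA and 7162 over the FGF8 members and 2010 to 19198 and 687 to 16131 CPM per cell; the richest cell held 11.5% and 6.14% of them. Cartilage markers had 289 UMIs in 17 BSA and 299 in 36 FGF8 members, and keratinocyte markers 25 UMIs in 13 and 51 in 31. Macrophage and erythroid markers, and in the BSA library endothelial and mural ones, were mostly in single cells. Macrophage genes (9) summed to 41 UMIs over the BSA and 173 over the FGF8 members, 0 to 1135 and 0 to 3333 CPM per cell, with 37 and 148 of these UMIs in 1 cell each; 3 of the 9 were at 0 in the BSA members. Of the 7 osteoclast genes 5 were at 0 in both libraries. Hemoglobin and other erythroid genes had 254 and 5713 UMIs, 208 and 5521 of them in 1 cell each, and a UMI in 16 of 17 and 45 of 47 members. Endothelial and mural genes had 48 and 61 BSA UMIs, 43 and 53 of them in 1 cell, against 19 in 13 cells and 9 in 9 cells of the FGF8 library. Without the members with UMIs of 2 or more genes of one such list (erythroid genes aside), which left 13 BSA and 33 FGF8 cells, the log2 ratio was 1.02 for *Spp1*, 4.18 for *Spry1*, 2.58 for *Bmp3* and -1.80 for *Postn*.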

How the data were processed

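The deposited files hold unnormalized UMI counts, by gene and barcode, which the authors made with Cell Ranger 9.0.0 on a GRCm39 transcriptome; the submitters' notes also name mm10 and Seurat. Libraries totalled 67739460 (BSA) and 124889213 (FGF8) UMIs over 3703 and 7249 barcodes, before the cell filter. The members and gene lists were chosen with earlier results of these data known. Member counts were summed per library and given as CPM. With 1 library per group no test was possible, so log2 ratios carry exact conditional 95% intervals and shares Clopper-Pearson intervals (scipy 1.17.1), both for counting error only. A gene was tested, that is compared, with at least 10 UMIs over both libraries. The text names genes of 20 lists, the 20 highest over other connective tissue cells with a UMI in at least 25% of members, and the 10 highest and 10 lowest between libraries with at least 100 UMIs, a UMI in at least 10% of members of the higher library and the same sign in both sexes. Some of these genes are not reported here. Sex was called from sex-linked genes. Scrublet (scanpy 1.11.5) called 0 doublets at its own threshold and so did not work here; an alternative removed the 130 and 437 highest-scoring barcodes. Ratios were checked on simulated counts drawn without variation between cells. That check therefore says nothing about genes whose UMIs lie mostly in 1 cell.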

Additional observations from a re-analysis of the deposited data

Results flagged for a closer look

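Several members' genes differed in direction between the sexes, with intervals that exclude 0 in both; the difference itself was not tested, and the BSA library held 3 male-called members. In female-called and then male-called members, the log2 ratio of FGF8 over BSA was -2.02 and 5.13 for *Bglap*, -1.62 and 1.92 for *Birc5* (a mitotic survivin), -1.29 and at least 1.33 for *Cenpa* (no male BSA UMI, set at 3 UMIs) and -3.08 and 2.58 for *Cxcl1*. It was 2.58 and -1.13 for *Ifitm5*, 1.57 and -2.79 for *Phex* and 2.53 and -2.32 for *Smpd3*. *Bglap* and *Phex* are genes of the rule. Of the 3614 BSA UMIs of *Bglap*, 2630 were in 1 female-called cell, so its female value rests largely on that cell.

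For 3 of the genes named, the log2 ratios of the members and of other connective tissue cells were both past 1 in size, with intervals that exclude 0, and differed in direction, which was also not tested. The log2 ratio was 1.48 in members and -1.72 in other connective tissue cells for *Ibsp*, a gene of the rule. Members were chosen partly by *Ibsp* and taken out of the other cells, so this contrast is a description and not a result. The log2 ratio was -1.19 and 1.46 for *Ccnb1* (cyclin B1) and -1.12 and 1.51 for *Cenpa*, both made before cell division.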

How the results depend on the processing

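No paired analysis was possible because each group was 1 library. Of 133 results under the alternatives, the summary values that moved are given by setting, with the 19 gene values that changed sign from a ratio past 1 whose interval excludes 0, and the cause was not tested. With at least 4 bone genes the share of members was 0.246% (BSA) and 0.432% (FGF8), and the list medians were -0.52 (bone matrix), -0.21 (FGF receptors), -0.63 (tendon), -1.82 (mitosis), 0.085 (glycolysis) and 0.45 (immediate early), with *Mkx* at 0.83 and *Thbs4* at 1.54. With at least 2 bone genes the shares were 1.01% and 1.07%, and the medians -1.36 (tendon), 1.96 (chemokines) and -0.93 (mitosis). The rule on barcodes thinned to 5000 UMIs gave shares of 0.244% and 0.463%. In female-called cells the FGF8 share was 1.04%, genes with a log2 ratio below -1 numbered 1128, and the medians were -0.20 (regulators), 2.53 (mineralization), -0.85 (collagen processing), -0.64 (FGF receptors), -1.16 (S phase), -0.80 (mitosis), -0.74 (endoplasmic reticulum) and -0.74 (immediate early). In male-called cells the medians were 0.47 (regulators), -0.62 (mineralization), -0.20 (collagen processing), 0.90 (BMP), 0.60 (hypertrophic), 0.015 (tendon), 0.97 (S phase), 1.33 (mitosis) and 1.90 (immediate early), with *Ank* at -0.18, *Cenpa* 1.33, *Comp* 0.024, *Phlda1* -0.048, *Scx* 0.015 and *Slc20a1* -0.68. The tendon median there covered only part of its list.

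Without members holding other cell types' markers (4 BSA and 11 FGF8 cells left) the FGF8 share was 1.25%, 445 genes were above 1, and the medians were -0.43 (FGF receptors), 0.82 (BMP), 1.01 (proteases), 0.93 (S phase), 1.6 (mitosis), -0.57 (endoplasmic reticulum) and 1.61 (immediate early), with *Cenpa* at 1.81, *Col11a2* 0.48, *Comp* 1.58, *Nog* 1.29 and *Sema3a* -1.14. The following settings marked as added were chosen after seeing the data. With erythroid genes left out of those lists (added) the FGF8 share was 0.984% and *Cxcl14* stood at -0.60. Without each gene's richest cell per library (added) 1151 genes were above 1, the medians were 0.47 (hypertrophic) and -1.26 (tendon), and *Thbs4* stood at 2.24. Without the BSA cell richest in tendon UMIs (added) the tendon median was -0.89, with *Thbs4* at 2.57 and *Tnmd* at 0.037. A minimum of 50 UMIs left 149 genes above 1 and 131 below -1, and no minimum gave 1078 below -1. Members thinned to 5000 UMIs gave 440 genes below -1 and medians of 0.57 (regulators), 0.89 (S phase) and 0.065 (glycolysis). The stricter cell filter gave medians of -0.27 (regulators), -0.60 (FGF receptors), -1.46 (tendon), 0.97 (S phase) and 0.17 (glycolysis), with *Cxcl14* at -0.24 and *Thbs4* at 1.59. Equal weight per cell gave -0.44 for FGF receptors, and no cartilage limit -1.43 for tendon. The other 356 summary values and 1209 gene values stayed within their limits. Medians near 0 changed sign within them: 76 of these summary values did. Apart from the gene values with a changed sign listed above, 98 of the 490 gene values that moved changed sign, as did 65 of the 1209. With 17 BSA members, genes with few UMIs have wide intervals.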
